A study of Bos taurus with 8 samples.

Results

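Cell cycle and DNA replication genes were examined in the mammary gland of 4 lactating Holstein cows (Bos taurus). A biopsy of full gland, taken 12 h after milk removal, and a biopsy of empty gland, taken at 0 h with the milk just removed, came from every animal, so that the 8 arrays form 4 pairs. The labels give neither the order of the biopsies nor the gland of the udder they came from, and these cannot be told apart from the state. All animals carried the same labels for breed and for tissue, and no genetic or drug treatment is named. The series asks how milk accumulation affects gene expression in the gland. Of 42 genes chosen by name for their part in cell division, 35 had at least 1 probe set with a single gene symbol, among 9155 such genes on the array. CDKN1B, CDK6, MCM2, GINS2, CDC25B, TOP2A and MKI67 had none and are not analysed here. By role, the 35 were 3 inhibitors of cyclin-dependent kinases, the pocket protein gene RB1, 7 G1 cyclins and kinases, 10 genes of DNA replication and nucleotide supply, and 14 genes of G2 and mitosis. The last 3 roles, 31 genes, are called the proliferation genes here, apart from the inhibitors and RB1.

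Cell division is driven by cyclin-dependent kinases (CDKs), enzymes that act only when bound to a cyclin. D cyclins with CDK4 or CDK6, followed by E cyclins with CDK2, phosphorylate the RB1 protein, which releases E2F factors and turns on the genes of DNA synthesis. The CDC6 protein and the MCM helicase then license and open the replication origins, and cyclins A and B with CDK1 drive mitosis. CIP/KIP inhibitors such as CDKN1A and INK4 inhibitors such as CDKN2C restrain the kinases. In the mammary gland of ruminants, epithelial cells mainly multiply before and around calving, and division in the lactating gland is slow. Messages of S phase and mitosis come from the few cells in division, of whatever cell type, while CDK inhibitors are also transcribed in resting cells. In a biopsy, fewer cells of a type and less RNA per cell cannot be told apart.

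The levels are log2 values, so that 1 unit is a 2-fold difference, and a probe set is a group of short probes that together report 1 transcript. The deposited values of the 35 genes averaged between 5.75 and 10.47 over the 8 arrays, and 20 of the 35 lay below the median of all probe sets, 7.16. Levels of different genes are not compared, because each probe set has its own brightness. Both cow 2 and cow 4 had a full library unlike the others: its median correlation with the other 7 arrays was 0.969 in cow 2 and 0.9753 in cow 4, and every other library reached at least 0.9856. The results are therefore also given cow by cow. Of the luminal epithelial markers, the milk protein gene CSN3 lay between 13.76 and 13.99 and the epithelial transcription factor gene ELF5 between 13.26 and 13.61. Of the keratin genes among them, KRT19 lay between 13.09 and 13.44, while KRT8 ranged from 7.19 to 9.66 and KRT18 from 7.39 to 9.65.

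No cell cycle gene was called different between full and empty gland after adjustment for the number of probe sets tested. A limma model that paired the biopsies by cow, adjusted by Benjamini-Hochberg over all 24016 probe sets, called none: 0 of the 35 genes passed an adjusted p of 0.05, and the smallest adjusted p was 0.993. Over the whole array 0% of the probe sets passed. At an unadjusted p under 0.05 there was 1 gene of the 35, CDKN1A, where 2.8% of all genes reached that level. CDKN1A was also the only one of the 35 that was higher in the full gland of all 4 cows, against 3.59% of all genes, and none was lower in all 4, against 7.11%. Both counts are near or below the background. In no gene of the set did the 4 full values lie wholly above or below the 4 empty values, as they did for 0.71% of all genes.

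The mean differences were small and leaned towards the full gland. Of the 31 proliferation genes, 23 were higher on average in full gland and 8 lower, with a median of 0.07 log2 and a range of -0.18 to 0.31. The median over all 9155 genes was -0.0036, and 48.6% of them were higher. The lean depended on cow 4. Without cow 4, 15 of the 31 were higher and 16 lower, with a median of -0.0015, and without cows 2 and 4 the split was 4 higher and 27 lower, with a median of -0.10. In the cows then kept, 5780 of all 9155 genes were lower in full gland in cow 1 and 5095 in cow 3. The split of all genes over those cows together was not counted. Without cow 1, cow 2 or cow 3 alone, 27, 20 and 25 of the 31 were higher. The 95% intervals of the 35 mean differences reached between 0.17 and 0.67 log2 to either side, 0.30 in the median gene. Differences below that size could not be told from 0 in these animals, and the missed threshold does not show that levels were equal.

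**Figure D1:**
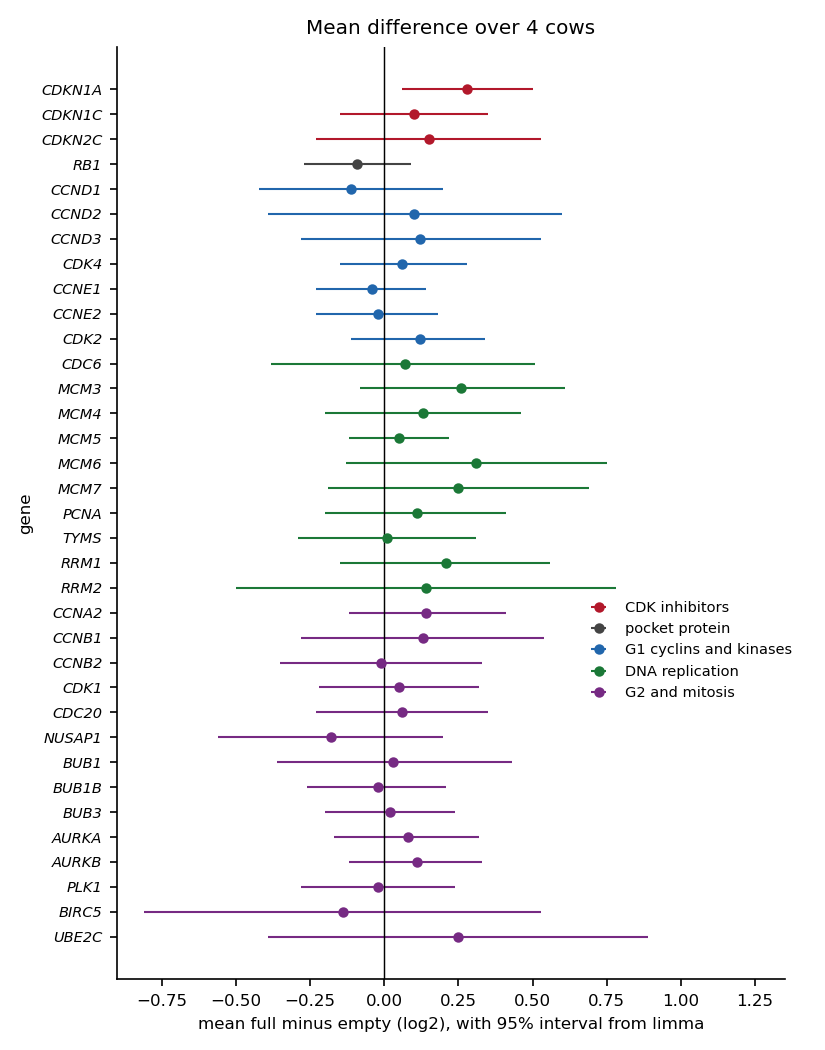
Mean full minus empty difference (log2, horizontal axis) of each of the 35 genes over 4 cows, coloured by role; bars are the 95% intervals from limma. The interval of CDKN1A, 0.06 to 0.50, is the only one that leaves out 0 before adjustment, and the points of the 10 replication genes all lie at or to the right of 0.

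Among the CDK inhibitors, only CDKN1A differed in the same direction in all 4 cows, and it did not pass. CDKN1A, which encodes the p53-inducible inhibitor p21, was at 7.27, 7.61, 7.56 and 6.96 in the empty gland of cows 1 to 4 and at 7.40, 7.87, 7.74 and 7.50 in their full gland. The full value was above the empty value of the same cow each time, by 0.13, 0.26, 0.19 and 0.54, but the groups overlapped, since the full gland of cow 1 lay below the empty gland of cows 2 and 3. The mean difference was 0.28 ± 0.09 log2 (limma's moderated SE, n = 4 cows), or 1.21-fold, from 7.35 ± 0.30 to 7.63 ± 0.22 (SD, n = 4). Its unadjusted p in limma was 0.0223 and its adjusted p 0.993. Without cow 4 the difference was 0.19 (unadjusted p = 0.0692 in limma), and without cows 2 and 4 it was 0.16 (unadjusted p = 0.115 in limma). The unadjusted p in limma was 0.129 without the replicate block and 0.0645 with cow as a random block.

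The other 2 inhibitors had no shared direction. CDKN1C, the CIP/KIP inhibitor p57, was at 8.98, 8.89, 8.41 and 9.05 in empty and at 8.88, 9.03, 8.37 and 9.44 in full gland of cows 1 to 4. It was higher in cows 2 and 4 and lower in cows 1 and 3, and cow 3 was the lowest in both states. The mean difference was 0.10 ± 0.10 (SE, n = 4 cows), and 2 dimmer probe sets of the gene gave 0.10 and 0.12. CDKN2C, the INK4 inhibitor p18, was at 7.39, 6.90, 7.12 and 6.92 in empty and at 7.25, 7.31, 6.89 and 7.48 in full gland. The values of cows 2 and 4 were higher in full gland by 0.41 and 0.56, while cows 1 and 3 differed by -0.14 and -0.22. The mean difference was 0.15 ± 0.15, and neither gene passed, with an adjusted p of 0.993 for each in limma. The median over the 3 inhibitors was 0.15, with cow medians of -0.10, 0.26, -0.04 and 0.54, and without cows 2 and 4 it was -0.07.

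RB1, whose protein holds E2F factors in check until CDKs phosphorylate it, was at 10.26, 10.59, 10.73 and 10.48 in empty and at 10.24, 10.39, 10.57 and 10.49 in full gland. The values of each cow differed by 0.20 or less between the states, lower in full gland in 3 cows, and the groups overlapped. The mean difference was -0.09 ± 0.07 (SE, n = 4 cows, 95% interval -0.27 to 0.09), with an adjusted p of 0.993 in limma.

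**Figure D2:**
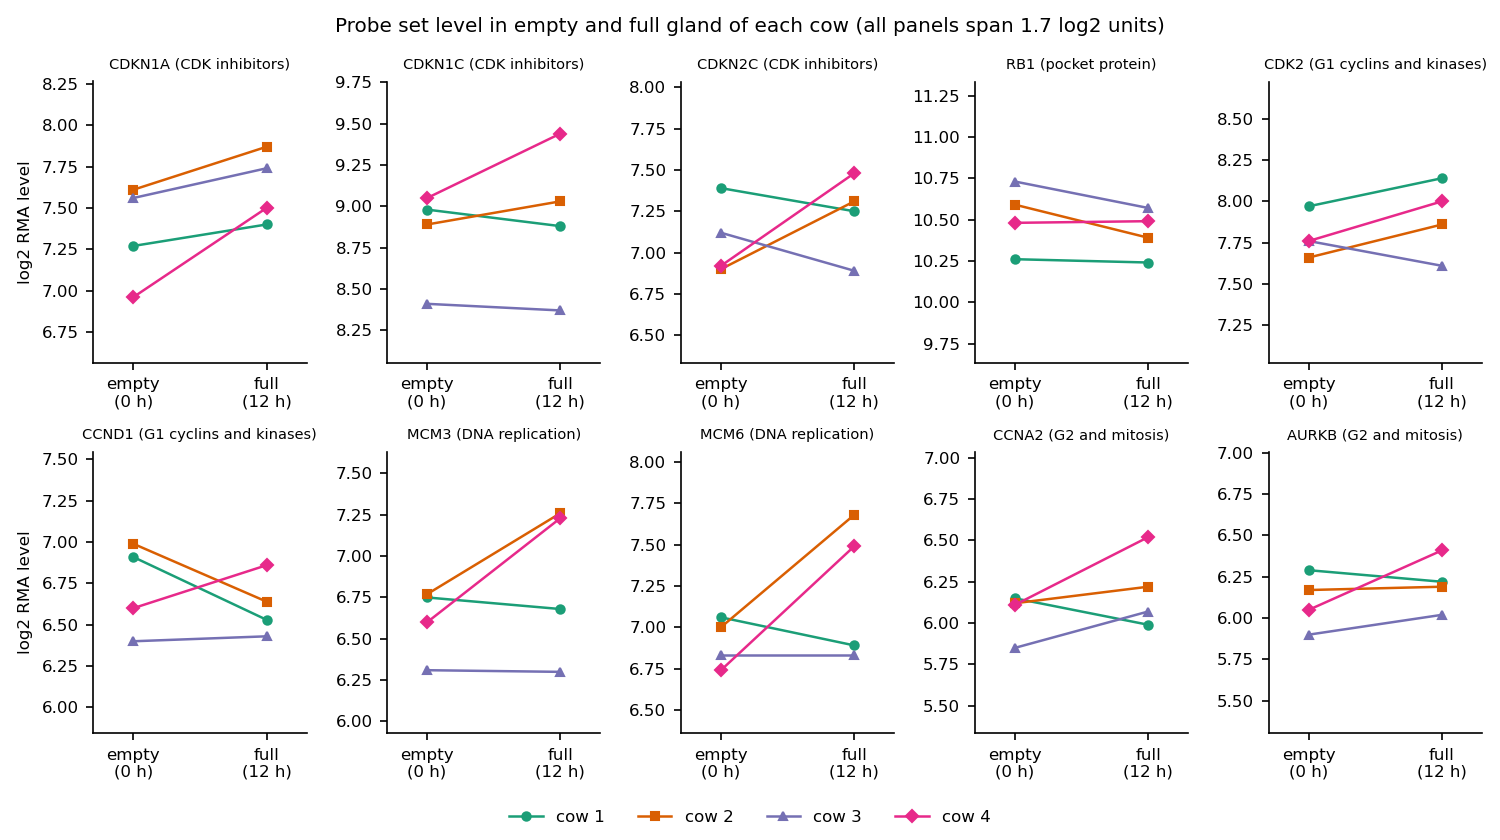
Log2 level (vertical axis, 1.7 units in each panel) in empty (0 h) and full (12 h) gland for 10 genes; lines join the 2 biopsies of a cow. CDKN1A lines all slope upwards, while MCM3 and MCM6 lines slope upwards in cows 2 and 4 and are nearly flat or slope slightly down in cows 1 and 3.

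G1 cyclins and kinases had mean differences of both signs within a narrow range. Of the 7 genes, 4 were higher and 3 lower on average, with a median of 0.06 and a range of -0.11 to 0.12, and none passed. CDK2, the partner of the E cyclins, was at 7.97, 7.66, 7.76 and 7.76 in empty and at 8.14, 7.86, 7.61 and 8.00 in full gland. It was higher in full gland in 3 cows and lower in cow 3, with a mean difference of 0.12 ± 0.09 (SE, n = 4 cows, limma adjusted p = 0.993). CCND1, which encodes cyclin D1, was at 6.91, 6.99, 6.40 and 6.60 in empty and at 6.53, 6.64, 6.43 and 6.86 in full gland. Its level was lower in the full gland of cows 1 and 2 (-0.37 and -0.35), near 0 in cow 3 at 0.03, and 0.25 higher in cow 4, so that the mean was -0.11 ± 0.13.

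The remaining D cyclins differed most in different animals. CCND2 differed by 0.83 in cow 4 and by -0.40 in cow 1, and CCND3 by 0.73 in cow 2 and by -0.18 to 0.09 in the others. Each therefore has a mean near 0.1 (0.10 and 0.12) that rests on 1 cow: without cow 4, CCND2 differed by -0.14, and without cow 2, CCND3 differed by -0.08. CDK4, the kinase bound by D cyclins, had a mean difference of 0.06. The E cyclin genes CCNE1 and CCNE2 differed by -0.04 and -0.02, and both were dim, with no value above 6.66.

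DNA replication and nucleotide supply genes all had a positive mean difference. The 10 genes ranged from 0.01 to 0.31 with a median of 0.13, and none passed. The helicase subunit gene MCM6 was at 7.06, 7.0, 6.83 and 6.74 in empty and at 6.89, 7.68, 6.83 and 7.49 in full gland. The full glands of cows 2 and 4 stood above all 4 empty glands, and those of cows 1 and 3 did not. The mean difference was 0.31 ± 0.18 (SE, n = 4 cows, 95% interval -0.13 to 0.75). MCM3, another subunit, was at 6.75, 6.77, 6.31 and 6.60 in empty and at 6.68, 7.26, 6.30 and 7.23 in full gland. Here too the full glands of cows 2 and 4 were the highest, while cow 3 was the lowest in both states, and the mean difference was 0.26 ± 0.14. Unadjusted p values in limma were 0.133 for MCM6 and 0.113 for MCM3, and the adjusted p was 0.993 for both.

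The other replication genes split by animal in more than one way. MCM7, another helicase subunit gene, differed by 0.93 in cow 2 and by 0.11 in cow 4. PCNA, the sliding clamp of the DNA polymerases, differed by 0.52 in cow 2 and by 0.04 in cow 4. RRM2, the regulatory subunit of ribonucleotide reductase, which makes deoxynucleotides, did the opposite, at -0.24 in cow 2 and 1.14 in cow 4, and TYMS, thymidylate synthase, differed by -0.06 and 0.39. RRM1, the catalytic subunit, and MCM4 were higher in both cows, by 0.61 and 0.41 for RRM1 and by 0.32 and 0.50 for MCM4. CDC6, the loader of the helicase, differed by -0.60 in cow 1 and 0.50 in cow 4. MCM5 differed by 0.17 or less in every cow. The means were 0.25 for MCM7, 0.21 for RRM1, 0.14 for RRM2, 0.13 for MCM4, 0.11 for PCNA, 0.07 for CDC6, 0.05 for MCM5 and 0.01 for TYMS. Without cows 2 and 4, all of the replication genes but MCM5 had a mean below 0.

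Genes of G2 and mitosis went opposite ways in cows 1 and 4. All 14 were lower in the full than in the empty gland of cow 1, where 63.1% of all genes were lower, and all 14 were higher in the full gland of cow 4, where 53.2% of all genes were higher. The medians in cows 1 to 4 were -0.24, 0.12, 0.04 and 0.37. Over the 4 cows these differences largely cancelled, with a median of 0.04 and 9 genes higher and 5 lower. With 1 biopsy per state in each cow, a difference within a cow has no replicate and was not tested. The pattern of all 14, lower in cow 1 and higher in cow 4, was picked out after the values were seen and was met by 38.6% of all genes. These shares of all genes are not matched for level. Of the proliferation genes, all 20 below the median level of the array were lower in cow 1, and 19 were higher in cow 4. The 11 at or above it split into 5 higher and 6 lower in cow 1, and 9 were higher in cow 4. Whether the pattern belongs to mitotic genes or to dim probe sets was not tested.

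CCNA2, which encodes cyclin A, was at 6.15, 6.12, 5.85 and 6.11 in empty and at 5.99, 6.22, 6.07 and 6.52 in full gland. It was higher in the full gland of all cows but cow 1, and the mean difference was 0.14 ± 0.11 (SE, n = 4 cows). AURKB, the kinase of the chromosomal passenger complex, was at 6.29, 6.17, 5.90 and 6.05 in empty and at 6.22, 6.19, 6.02 and 6.41 in full gland, with a mean difference of 0.11 ± 0.09. The groups overlapped for both, and each had an adjusted p of 0.993 in limma. A second probe set of AURKB differed more widely between cows, at -0.38 in cow 1 and 0.66 in cow 4, and had a mean of 0.13.

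The widest swings in this role belonged to UBE2C and BIRC5. UBE2C, the ubiquitin-conjugating enzyme of the anaphase-promoting complex, was at 7.06, 6.70, 6.0 and 6.95 in empty and at 6.30, 7.37, 6.31 and 7.71 in full gland. Its differences were -0.76, 0.67, 0.31 and 0.77, and the mean was 0.25 ± 0.26 (SE, n = 4 cows). BIRC5, which encodes survivin of the same passenger complex as AURKB, was at 7.05, 6.88, 6.03 and 6.62 in empty and at 6.02, 6.56, 6.09 and 7.35 in full gland. It differed by -1.03 in cow 1 and 0.74 in cow 4, and its mean was -0.14 ± 0.27. These 2 genes were picked out after their values were seen, and neither passed.

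The other 10 mitotic genes had means between -0.18 and 0.13. CCNB1 and CCNB2, the B cyclins, averaged 0.13 and -0.01, and their kinase CDK1 0.05. The spindle checkpoint genes BUB1, BUB1B and BUB3 averaged 0.03, -0.02 and 0.02. The mitotic kinases AURKA and PLK1 averaged 0.08 and -0.02, and CDC20, the activator of the anaphase-promoting complex, averaged 0.06. NUSAP1, a spindle microtubule protein, had the lowest mean, -0.18, and was lower in full gland in all cows but cow 4. BUB3, the brightest of these probe sets, differed by 0.22 or less in every cow. CCNB1, at 5.43 to 6.34, BUB1, at 5.56 to 6.42, and AURKA, at 5.74 to 6.55, were dim. The lowest value of any gene on the arrays was 5.04, so values this low do not show that a gene is expressed.

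**Figure D3:**
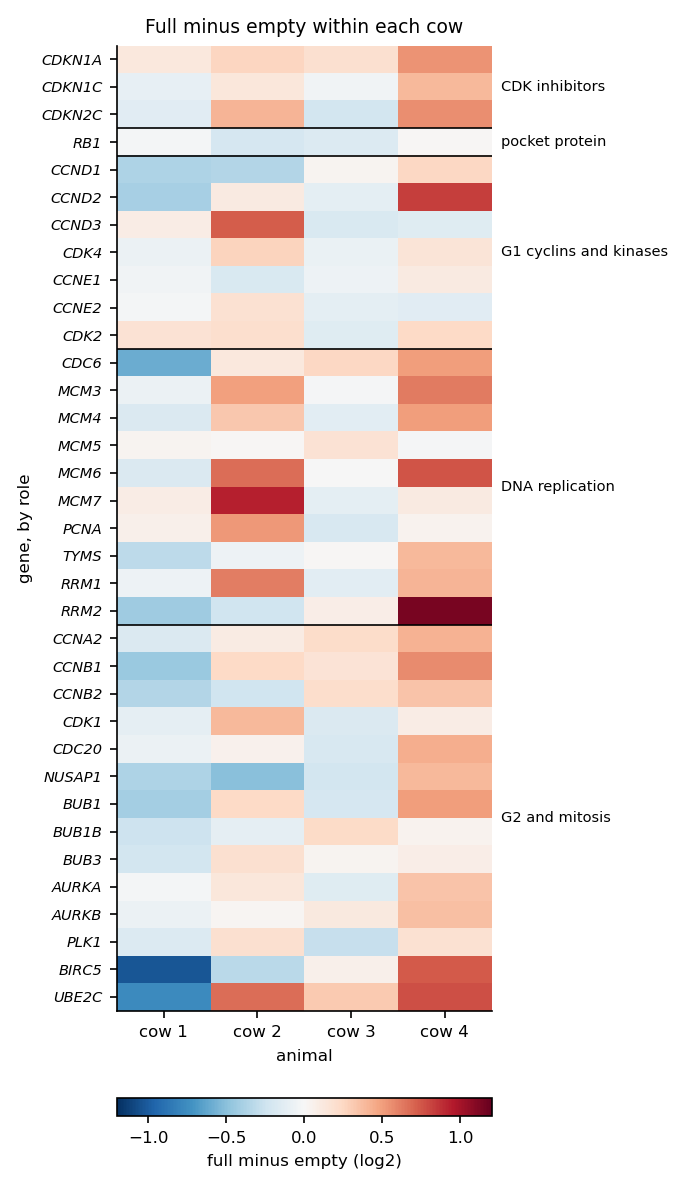
Full minus empty difference (log2, colour) of 35 genes (rows, by role) within each of 4 cows (columns); red is higher in full gland and blue lower, and each cell rests on 1 pair of biopsies. The mitotic rows are blue throughout in cow 1 and red throughout in cow 4, and the strongest cell is RRM2 in cow 4 at 1.14.

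Counting only differences over 0.3 log2, a size chosen after the values were seen, separates the animals further. In cow 4, 18 of the 31 proliferation genes were higher by more than 0.3 and 0 lower, where 18% of all genes were higher by that much and 9.3% lower. In cow 1, 0 were higher and 11 lower, against 1.97% and 9.16% of all genes. In cow 2, 9 were higher and 3 lower, against 21.1% and 15.2%. In cow 3, only UBE2C was higher by more than 0.3 and none was lower, against 2.94% and 4.46%. By role, the genes higher by more than 0.3 in cow 2 were 6 of the 10 replication genes, 1 of the 7 G1 genes and 2 of the 14 mitotic genes. Those lower by more than 0.3 in cow 2 were 1 G1 gene, CCND1, and 2 mitotic genes, NUSAP1 and BIRC5. In cow 4 the genes higher by that much were 7 replication, 1 G1 and 10 mitotic genes. By level, they were 15 of the 20 proliferation genes below the median level of the array and 3 of the 11 at or above it.

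The spread between cows was wider in full than in empty gland, at a share of genes near that of the whole array. The SD over the 4 cows was larger in full gland for 28 of the 35 genes, with a median of 0.30 in full and 0.17 in empty gland. Among all genes 75.2% had the larger SD in full gland, with medians of 0.20 and 0.13. The full group holds the libraries of cows 2 and 4 that were unlike the others. The mean log2 level over the 31 proliferation genes was 7.24, 7.16, 6.99 and 7.15 in the empty gland of cows 1 to 4 and 7.02, 7.33, 6.97 and 7.50 in their full gland. The full values therefore lay both below and above the empty ones.

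Marker lists of other cell types differed in the same animals. The 13 fibroblast and matrix genes had medians of -0.28, 0.20, -0.09 and 0.66 in cows 1 to 4, with 12 of 13 lower in cow 1 and 12 of 13 higher in cow 4, and their mean log2 level ranged from 9.92 to 10.24 in empty and from 9.81 to 10.78 in full gland. The 14 T and natural killer cell genes measured of 16 had medians of -0.17, 0.36, -0.06 and 0.44, with 13 lower in cow 1 and 12 higher in cow 4, and mean levels of 7.24 to 7.60 in empty and 7.20 to 7.70 in full gland. The 11 myeloid and neutrophil genes measured of 12 had medians of -0.20, 0.18, -0.10 and 0.64, with 9 lower in cow 1 and 9 higher in cow 4, and mean levels of 7.68 to 7.87 and 7.57 to 8.33. All 8 myoepithelial genes measured of 9 were higher in cow 4, with medians of -0.01, 0.26, -0.03 and 0.68 and mean levels of 9.50 to 9.94 and 9.51 to 10.61. B and plasma cell genes, 5 of 8, had medians of -0.13, 0.0049, -0.04 and 0.30, with mean levels of 7.37 to 7.81 and 7.34 to 7.92.

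Luminal epithelial genes, all 9 measured, had medians of 0.02, 0.10, 0.02 and 0.0042, with mean levels of 11.82 to 12.03 in empty and 11.85 to 12.35 in full gland. Within that list KRT8, KRT18, CDH1 and EPCAM were higher by 1.21, 1.36, 0.57 and 0.23 in cow 4. KRT19, ELF5, CSN2, CSN3 and LALBA, at 13.09 or above in every array, differed by -0.17 to 0.0042 there. The median of the list in cow 4 was the value of LALBA, so it does not show that luminal genes were unchanged. Endothelial genes, 7 of 8, had a median of -0.42 in cow 2 and 0.12 in cow 4, with mean levels of 8.93 to 9.16 and 8.77 to 9.09. Adipocyte genes, 4 of 5, and red blood cell genes, 5 of 7, had cow medians between -0.13 and 0.05, with mean levels of 7.54 to 7.84 and 5.74 to 5.88 over all arrays. No marker is at 0 on this scale, where the lowest value of any gene was 5.04 and of any marker 5.22. A value near that lower end does not show that a gene is expressed. ADIPOQ, at 5.27 to 5.47, and red blood cell genes, from 5.34, lay near it, so their small differences do not show steady levels. The dim cell cycle genes, such as CCNB1 from 5.43, share this limit. No marker in any of these lists passed in limma. The part of these other cells in the differences of the cell cycle genes was not tested.

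**Figure D4:**
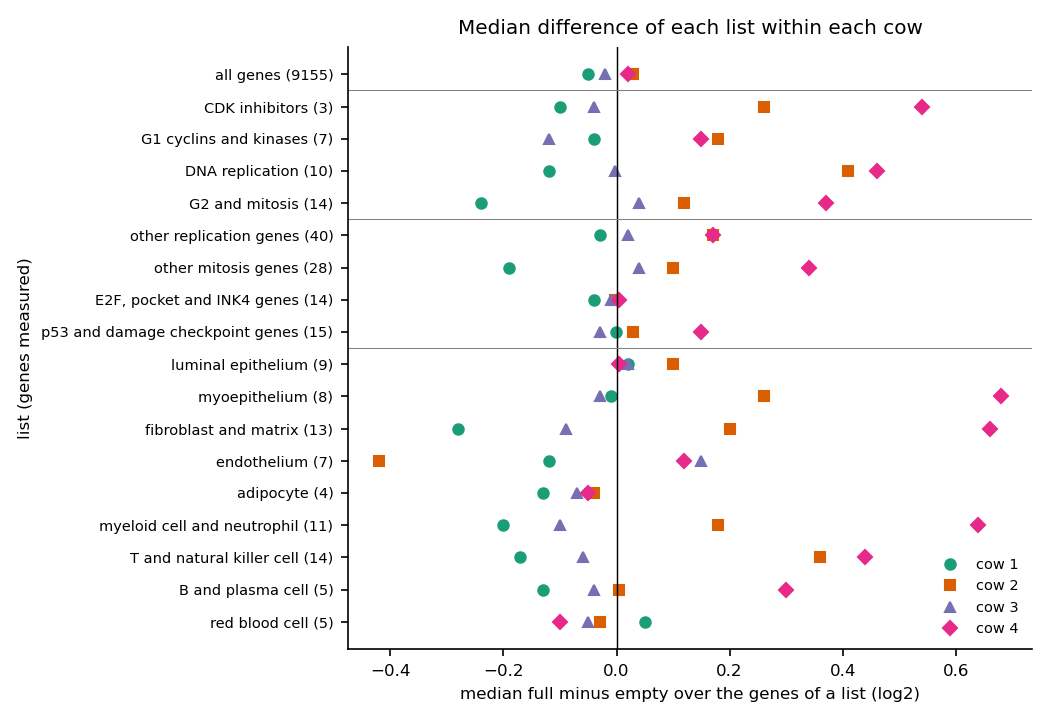
Median full minus empty difference (log2, horizontal axis) over the genes of each list (rows, with the number of genes measured) within each of 4 cows (symbols). Replication, mitosis, fibroblast, myeloid and T cell medians are below 0 in cow 1 and highest in cow 4, while the median of all genes lies between -0.05 and 0.03.

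Further genes of the pathway, set down as 4 lists, held 0 genes that passed. Of 40 other replication genes measured of 47 listed, 33 were higher and 7 lower, with a median of 0.06 and cow medians of -0.03, 0.17, 0.02 and 0.17. CHAF1B, a chromatin assembly factor, and RFC4, a subunit of the clamp loader, had the smallest unadjusted p. They were higher by 0.25 ± 0.10 and 0.24 ± 0.10 (SE, n = 4 cows). Both were higher in all 4 cows, RFC4 by only 0.01 in cow 1. Of the 40 genes, 3 were higher in all 4 cows and 0 lower, against 3.59% and 7.11% of all genes. The probe set of CHAF1B was dim, with means of 5.63 in empty and 5.88 in full gland. Of 28 other mitosis genes of 46 listed, 17 were higher and 11 lower, with a median of 0.08. Their cow medians, -0.19, 0.10, 0.04 and 0.34, had the signs of those of the 14 mitotic genes above, with 24 of the 28 lower in cow 1 and 21 higher in cow 4. HMMR, a hyaluronan receptor of the spindle, was higher by 0.26 ± 0.08 and NCAPG, a condensin subunit, differed by -0.17 ± 0.07. Each kept its direction in every cow, and of the 28 genes 1 was higher and 2 were lower in all 4 cows. The 4 further probe sets of HMMR differed by -0.03 to 0.10.

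The list of E2F, pocket and INK4 genes showed no lean, with 6 of 14 higher, 8 lower and a median of -0.02, of 24 listed. It also held FBXW7, CUL1, CDC34 and RBBP4, and its only pocket and INK4 genes measured were RBL2 and CDKN2B. It therefore says little about the pocket and INK4 classes. TFDP2, a partner of E2F factors, differed by 0.26 ± 0.10 and FBXW7, which marks cyclin E for destruction, by -0.25 ± 0.10 (SE, n = 4 cows). Of the p53 and damage checkpoint genes, 15 of 29 were measured, 11 of them higher and 4 lower, with a median of 0.09. MYC, a growth-promoting transcription factor gene that was set down in the same list, was at 9.19 in empty and 9.61 in full gland on average. It differed by 0.42 ± 0.15, with 0.17, 0.65, 0.01 and 0.85 in cows 1 to 4. SESN2, a stress-inducible sestrin, differed by 0.26 ± 0.11, but its 2 further probe sets differed by -0.07 and 0.06. Each of the 8 genes of these lists whose mean difference is given had an adjusted p of 0.993 in limma.

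Differences between the 4 animals were tested as well. An F-test of the cow terms in the same limma model asks whether a gene differs between cows beyond the spread of a cow's pair of biopsies. None of the 35 genes passed an adjusted p of 0.05, where 0.437% of all probe sets and 0.481% of the genes did, and the smallest adjusted p was 0.191, for CDKN1C. At an unadjusted p under 0.05 there were 6 of the 35, where 16.9% of all genes reached that level. CDKN1C averaged 8.93, 8.96, 8.39 and 9.25 in cows 1 to 4 (unadjusted p = 0.00602 in limma) and BUB1B 6.65, 6.58, 6.80 and 7.17 (unadjusted p = 0.0199 in limma). CDKN1A, AURKA, MCM3 and RB1 were the other 4. The cow means of CDKN1A, 7.33, 7.74, 7.65 and 7.23, spanned 0.51, more than its mean difference between full and empty gland. The widest spans of cow means were 1.27 for RRM2, 1.17 for UBE2C and 0.96 for CCND2, so the missed threshold does not show that the animals were alike.

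Further probe sets existed for 10 of the 35 genes. These 11 probe sets were dimmer, with means of 5.51 to 6.80, and 9 had a mean difference of the same sign as the brightest one. Those of CDC6 and TYMS had the opposite sign, at -0.07 and -0.09. The second probe set of MCM3 differed by 0.03 and that of MCM6 by 0.10, against 0.26 and 0.31 for the brightest ones. Among the proliferation genes, the 11 at or above the median level of the array were all higher on average, with a median of 0.10, and of the 20 below it 12 were higher and 8 lower, with a median of 0.06.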

How the data were processed

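Total RNA from 8 biopsies was copied from an oligo(dT) primer into biotinylated cRNA and hybridised to single-colour arrays, per the labels' protocols. The authors deposited log2 values, 1 for each probe set on each array, and made them with RMA per the submitters' processing notes. This method corrects background, equalises the arrays' distributions and summarises probes. A shift shared by most genes therefore cannot be seen. No RMA version is given in these sources.

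Of 24128 probe sets, 112 platform controls were left out. Of the 24016 tested, 13292 had 1 gene symbol, 86 several and 10638 none. A gene was its brightest probe set by the mean over all arrays, and the 35 genes reported kept their symbol in RefSeq through their entrez numbers. No coordinates or sequences are given.

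limma 3.58.1 in R 4.3.3 was fitted (lmFit, eBayes, two-sided) to all probe sets with state and cow as fixed terms, 3 residual and 2.81 prior degrees of freedom, and Benjamini-Hochberg adjustment with a threshold of 0.05. Cow is a block because the descriptions assign 1 full and 1 empty sample to each animal. Deviations from the group means correlated at 0.319 to 0.597 within cows. Arrays have no read depth, and their number limits the precision. On simulated data the model recovered 46% of 50 probe sets changed by 0.5 log2 and 98% of 50 changed by 1, with 18 false calls. The simulated noise was independent and equal in spread in every array. It therefore did not mimic the full libraries of cows 2 and 4 that were unlike the others. The genes to report, the lists and the alternatives were chosen with earlier results of these data known. All genes of the set are named, with values in every array for the inhibitors and for the 2 genes of each other role with the smallest unadjusted p, and the 2 of each further list with the smallest p. Alternatives were the model without the block or with a random one, other scalings, brighter probe sets only, each cow left out, cows 2 and 4 left out, a trend and robust prior, array weights, other choices of probe set and a threshold of 0.1. Tables were made with pandas 2.3.3 in Python 3.11.15.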

Additional observations from a re-analysis of the deposited data

Results flagged for a closer look

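The level of CCNA2 in the empty gland of cow 3, 5.85, lay apart from the other 3 empty glands, at 6.11 to 6.15. It was the only 1 of 70 groups of 4 values, 35 genes in 2 states, whose end value stood out by Dixon's criterion, and chance flags about 1 group in 20.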

How the results depend on the processing

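None of the 35 genes passed in the comparison of full with empty gland under any alternative that was run, where the smallest adjusted p in limma ranged from 0.514 to 1. The model without the replicate block called 0 of the 35 genes and 0 probe sets, and the random replicate block likewise 0. The median of the proliferation genes lay between -0.10 (cows 2 and 4 left out) and 0.12, and was -0.01 with array weights. That of the inhibitors lay between -0.07 and 0.28. CDKN1A kept a positive difference throughout, of 0.16 to 0.33, and its unadjusted p in limma rose above 0.05 without the replicate block (0.129), with the random replicate block (0.0645), without cow 4 (0.0692) and with cows 2 and 4 left out (0.115).

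Probe sets called between cows numbered 105, and 208 after median centring, 248 with trend and robust prior, 286 with array weights, 255 at an adjusted p of 0.1, 51 genes with a gene's probe sets averaged and 1820 with cows 2 and 4 left out, where 2 animals and fewer degrees of freedom remain. Leaving out 1 cow gave 13 (without cow 4) to 131 (without cow 2). None of the 35 genes was called except with cows 2 and 4 left out, when 4 were (CDKN1C, RB1, CCND2 and MCM3), or 11.4% against 7.58% of all probe sets.

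Uncalled mean differences changed sign as follows, and the cause was not tested. With cows 2 and 4 left out they were, among inhibitors and G1 genes, -0.07 for CDKN1C, -0.18 for CDKN2C, -0.26 for CCND2, -0.04 for CCND3 and -0.08 for CDK4. Among replication genes they were -0.18 for CDC6, -0.04 for MCM3, -0.15 for MCM4, -0.09 for MCM6, -0.02 for MCM7, -0.06 for PCNA, -0.15 for TYMS, -0.10 for RRM1 and -0.18 for RRM2. Among mitotic genes they were -0.14 for CCNB1, -0.14 for CDK1, -0.13 for CDC20, -0.30 for BUB1, -0.10 for BUB3, -0.09 for AURKA and -0.23 for UBE2C. With array weights they were -0.01 for CDKN2C, CCND3, CDK4, PCNA and AURKA, -0.02 for CCND2, TYMS and BUB3, -0.03 for CDC20, -0.06 for CDK1, -0.10 for BUB1 and 0.03 for CCNB2 and BUB1B. TYMS was at -0.01 after median centring and after repeated quantile normalization, and at -0.04 with its probe sets averaged, where CDC6 was at -0.00083.

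Leaving out 1 cow at a time turned the sign of 20 genes at least once. The ranges were -0.003 to 0.16 for CDKN1C, -0.14 to 0.27 for CCND2, -0.08 to 0.23 for CCND3, -0.0033 to 0.11 for CDK4, -0.09 to 0.00036 for CCNE1 and -0.09 to 0.01 for CCNE2. For replication genes they were -0.07 to 0.29 for CDC6, -0.03 to 0.21 for PCNA, -0.12 to 0.11 for TYMS and -0.20 to 0.33 for RRM2. For mitotic genes they were -0.02 to 0.32 for CCNB1, -0.13 to 0.10 for CCNB2, -0.06 to 0.12 for CDK1, -0.07 to 0.14 for CDC20, -0.12 to 0.18 for BUB1, -0.11 to 0.05 for BUB1B, -0.04 to 0.10 for BUB3, -0.01 to 0.15 for AURKA, -0.09 to 0.07 for PLK1 and -0.43 to 0.16 for BIRC5.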
